A study of Mus musculus with 12 samples.

Results

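The livers described here are those of germ-free male mice that received the carrier solution only. They are the 6 PBS libraries of a series of 12, chosen by the treatment label; the other 6 livers came from mice given ghrelin and were not used. All mice were C57BL/6j males of 13 to 16 weeks, raised without a gut microbiome, and were injected under the skin with phosphate-buffered saline (PBS) once a day at ZT2 for 5 days. Zeitgeber time (ZT) counts hours from lights on, so ZT2 lies early in the rest phase of a mouse, and the labels give ZT2 as the time of the liver samples as well. Each library was treated as 1 animal, although no label states this, and cage and litter are not labelled. No uninjected mice, no mice with a microbiome and no second time point belong to the group, so the values are levels and spreads in this 1 state. The libraries are called PBS 1 to PBS 6 after their titles. In the deposited order of samples the ghrelin libraries stand between PBS 5 and PBS 6 and the other PBS libraries. No label says whether PBS 5 and PBS 6 were handled separately. Such handling cannot be told apart from differences between animals.

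Liver RNA is dominated by hepatocytes, which release most plasma proteins into blood, dispose of ammonia as urea, store and release glucose, burn and build fat, make bile acids and clear foreign compounds. The liver of a male mouse also makes large amounts of major urinary proteins, small pheromone carriers whose genes respond to the pulses of growth hormone that males have. A smaller part of the RNA comes from Kupffer cells (the resident macrophages), sinusoidal endothelial cells, stellate cells and blood left in the tissue. Many hepatocyte genes follow the clock, feeding, glucocorticoids and inflammatory signals, so they can differ between animals of the same strain and age.

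Total counts were 18746597 to 22302533 per library (20959324 ± 1378600, SD, n = 6). Levels are given in CPM, the count of a gene per 1000000 counts of its library, summed over all rows. Of 38087 rows, 25260 had a count in at least 1 library and 12023 genes reached 1 CPM in each. A gene with 0 counts in all libraries could still lie at up to 0.0239 CPM (3 counts over the 6 libraries), a limit that covers counting error only, since PCR copies are not independent molecules. Between every pair of libraries the chi-square of the counts was well above 1 per degree of freedom, at 12.3 to 44.4, so none was treated as 1 library deposited 2 times. Separate preparations of 1 RNA would also exceed counting error and cannot be told apart from separate animals here. PBS 5 and PBS 6 were the closest pair and PBS 4 and PBS 5 the farthest.

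Some overlapping genes had near-equal counts. Among 2149 pairs of overlapping genes at 1 CPM or more, 63 had counts within 10% of each other in every library, 60 of them among the 868 pairs on the same strand and 3 among the 1281 pairs on opposite strands. Trf and the model gene Gm20425 were such a pair, with 15635 ± 589 and 15646 ± 590.1 CPM (mean ± SD, n = 6), as were Serpina3k and Serpina3m, C2 and Gm20547, and the Ugt1a rows, which share their last exons. The lincRNA row AC158114.1 and Hpd on the same strand were another (2096 ± 179.9 against 2092 ± 181 CPM), and the row of the hormone gene Epo, at 59.2 ± 4.64 CPM, had counts within 10% of those of its neighbour Gnb2, at 55.4 ± 4.58 CPM. The level of such a gene cannot be told apart from that of its partner. Counting each set once removed 59 rows with 3.76 to 4.27% of the counts.

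The defining genes of hepatocytes were all present. The 12 hepatocyte markers summed to 106467 to 134915 CPM, led by Alb, which encodes serum albumin, at 65228 ± 8137 CPM. Markers of the other cells of the liver were far lower. The 12 endothelial markers summed to 628 to 776 CPM, the 15 stellate and matrix markers to 524 to 586 CPM, the 14 Kupffer cell markers to 380.0 to 677 CPM and the 8 bile duct markers to 97.8 to 123 CPM, while Krt19, a keratin of bile ducts, was at 0.910 ± 0.354 CPM. The 13 neutrophil markers summed to 7.22 to 15.5 CPM and the 18 lymphocyte markers to 9.44 to 27.1 CPM, with the T cell receptor subunit Cd3e at 0.184 ± 0.172 CPM. Of 13 pancreatic acinar markers 9 had no count in any library, as had 4 of 9 muscle and 6 of 8 kidney markers. In whole tissue, fewer cells of a type and less RNA per cell cannot be told apart.

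Genes of secreted proteins held 32.7% ± 0.727 of all counts (mean ± SD, n = 6; 31.5 to 33.7% over the libraries; 184 genes with a count). The secreted, metabolic and housekeeping classes are lists of chosen genes, so their shares cover the listed genes only. Protein-coding genes on none of these lists held 39.9% ± 0.514 of counts (16207 genes with a count). Leading genes of a class are those with the most counts, which favours long transcripts. Albumin and other carriers made up 12.3% ± 1.001, serpins and other protease inhibitors 7.73% ± 0.493, apolipoproteins and lipoprotein enzymes 5.18% ± 0.101, clotting and fibrinolysis proteins 3.61% ± 0.530, complement 2.24% ± 0.180 and major urinary proteins 1.21% ± 0.239. The apolipoprotein share had the smallest spread of these relative to its mean. It was led by Apob, the structural protein of very low density lipoprotein, at 16884 ± 667 CPM, Apoe, a ligand of lipoprotein receptors, at 11569.5 ± 786 CPM and Apoa1, the main protein of high density lipoprotein, at 7260.4 ± 311 CPM. Among carriers, the iron carrier Trf, the vitamin D carrier Gc at 6268 ± 121 CPM, the thyroxine carrier Ttr at 4814 ± 334 CPM and the mineral-binding fetuin Ahsg at 8119.7 ± 361 CPM followed albumin. Inhibitors were led by Serpina3m and Serpina3k, which may share reads, with Serpina1e at 7605 ± 1107 CPM and Serpina1b at 7077 ± 366 CPM, copies of the elastase inhibitor alpha-1-antitrypsin, and the alpha-macroglobulins Mug1 at 6812 ± 697 CPM and Pzp at 6727 ± 404 CPM. Counting overlapping rows once took the inhibitor share from 7.73 to 6.63%.

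The 3 fibrinogen chains led the clotting genes, at 8469 ± 2085 CPM for Fga, 7631 ± 1773 CPM for Fgb and 5525 ± 1285 CPM for Fgg. All were highest in PBS 4, with 12282, 10941 and 7956 CPM, and the clotting share followed, at 4.57% in that library against 3.15 to 3.79% in the others. Plg, the precursor of the clot-dissolving protease plasmin, was at 2328 ± 51.8 CPM, Vtn, which binds cells and protease inhibitors, at 2249 ± 157 CPM and Apoh, a phospholipid-binding plasma protein, at 2115 ± 106 CPM. Complement was led by C3, the component that all activation routes join at, with 9509 ± 1101 CPM. Hormones and their binding proteins made up 0.450% ± 0.0117 of counts. Hamp, which encodes the iron hormone hepcidin, was at 367 ± 105 CPM and Igf1, the growth hormone dependent growth factor, at 551 ± 55.1 CPM.

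**Figure D1:**
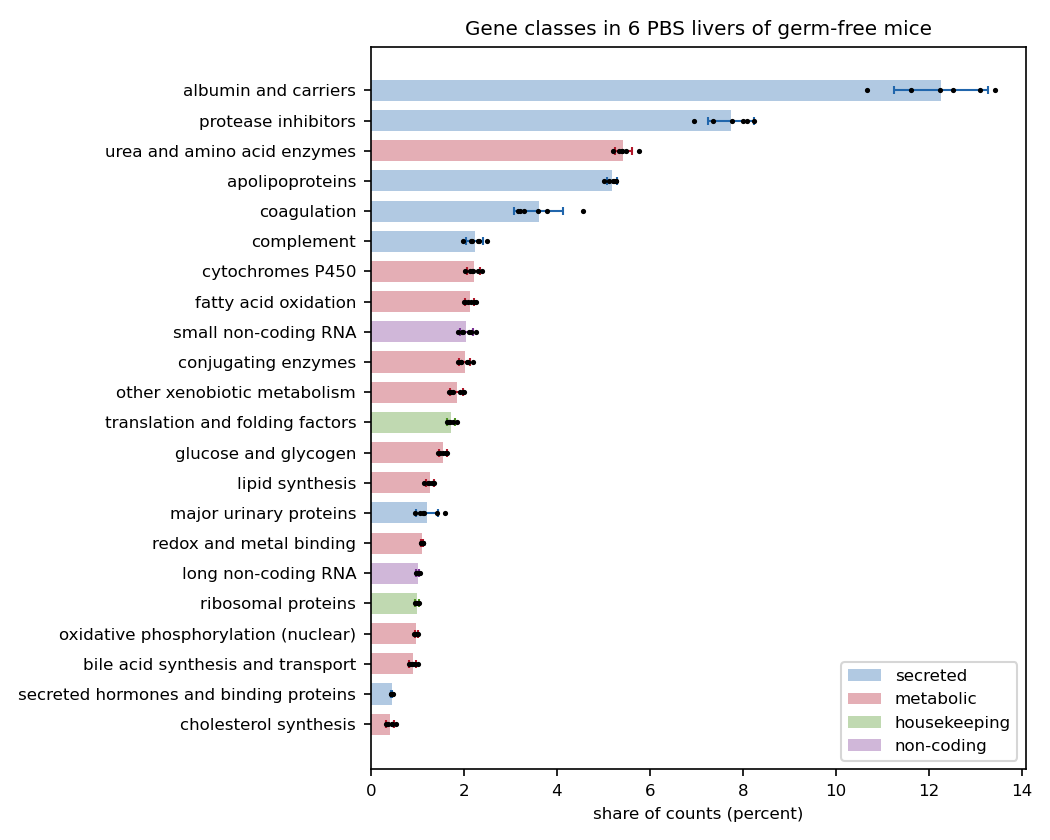
Share of counts, in percent of each library's total, for 20 gene classes and for small and long non-coding RNA; bars are means of the 6 PBS libraries, error bars 1 SD, and points the single libraries. Albumin and carriers, protease inhibitors and apolipoproteins hold the largest secreted shares, and the PBS 4 point at 4.57% stands apart in coagulation. Protein-coding genes outside these classes, with 39.9% of counts, are not shown.

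Metabolic genes held 19.8% ± 0.659 of counts (19.1 to 20.6%, 562 genes with a count). Amino acid breakdown and the urea cycle made up 5.43% ± 0.185, with Cps1, which fixes ammonia for urea synthesis, at 10138 ± 246 CPM, Ass1 at 2537 ± 206 CPM, Arg1 at 1681 ± 125 CPM and Otc at 493 ± 43.9 CPM further along the cycle. Mat1a, which makes the methyl donor S-adenosylmethionine, was at 4111 ± 804 CPM and Tdo2, the first enzyme of tryptophan breakdown, at 2562 ± 397 CPM. Cytochromes P450, which oxidise drugs, steroids and fatty acids, made up 2.21% ± 0.133, conjugating enzymes 2.02% ± 0.123 (1.55% with overlapping rows counted once) and other enzymes of foreign compounds 1.85% ± 0.139. Cyp2e1, which oxidises ethanol, led the P450 genes at 7638 ± 606 CPM, followed at some distance by Cyp2c29 at 1360.5 ± 171 CPM. Fatty acid oxidation held 2.12% ± 0.104, glucose and glycogen enzymes 1.56% ± 0.0817, fat synthesis 1.27% ± 0.0792, nuclear-encoded oxidative phosphorylation 0.974% ± 0.0352, bile acid transport and control 0.901% ± 0.0713 and cholesterol synthesis 0.413% ± 0.0784. Single leaders were the desaturase Scd1 at 5299 ± 556 CPM, the gluconeogenic Pck1 at 2918 ± 594 CPM and catalase (Cat) at 2837 ± 265 CPM. Mitochondrially encoded genes were not analysed here.

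Housekeeping genes held 2.71% ± 0.109, of which cytosolic ribosomal proteins were 0.991% ± 0.0361. The elongation factor Eef1a1 was at 4144 ± 136 CPM. Non-coding genes held 3.06% ± 0.139, split into small RNA at 2.05% ± 0.142 and long RNA at 1.01% ± 0.0321, and the long share was 0.744% once overlapping rows were counted once. Libraries of total RNA keep transcripts without a poly(A) tail, and 7SK, the RNA that holds the elongation factor P-TEFb inactive, was at 6411 ± 330.0 CPM. The RNA of ribonuclease P, which trims transfer RNA, was at 3268 ± 215 CPM and that of ribonuclease MRP, which works on ribosomal RNA precursors, at 1358 ± 133 CPM. Malat1, a long nuclear RNA, was at 4038 ± 160.2 CPM and Neat1, the scaffold of nuclear paraspeckles, at 392 ± 129 CPM. Gas5, which hosts small nucleolar RNAs, was at 61.9 ± 2.38 CPM. Snhg3, another host gene, was at 139.6 ± 10.4 CPM, but its counts lay within 10% of those of Rcc1 on the same strand (144 ± 10.2 CPM). The row named Mir5105, at 8128 ± 1219.6 CPM, matched no annotated gene in GENCODE M21 and was counted in neither group.

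Between genes, levels can be compared only per kilobase of exon, since longer transcripts collect more fragments. On that scale Alb stood at 27851 ± 3474 CPM per kb, Apoa2, another protein of high density lipoprotein, at 8689.8 ± 495, Mup3 at 7807 ± 1058, Apoa1 at 5874 ± 252 and Apoe at 5411 ± 368 CPM per kb. Apob, second to Alb by CPM, was at 1212 ± 47.9 CPM per kb, below the short Apoc1 at 3529 ± 187 and the fatty acid carrier Fabp1 at 3733 ± 376. The small RNAs 7SK at 19368 ± 997 and that of ribonuclease P at 10243 ± 675 CPM per kb ranked directly after Alb among named genes. Trf at 4709 ± 178 and Serpina1e at 4703 ± 685 CPM per kb did not differ beyond their spread, nor did Ahsg at 3696 ± 164 and Cyp2e1 at 3539 ± 281. Markers of other cells were far lower, with Clec4f of Kupffer cells at 30.7 ± 6.44, the stellate cell proteoglycan Dcn at 24.2 ± 2.45 and the endothelial scavenger receptor Stab2 at 17.3 ± 1.08 CPM per kb. Because very short rows gain most from division by length, non-coding genes took 30.9% of all counts per kb, against 3.06% of counts. Rows annotated as miRNA alone took 17.4% of counts per kb, against 0.559% of counts.

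**Figure D2:**
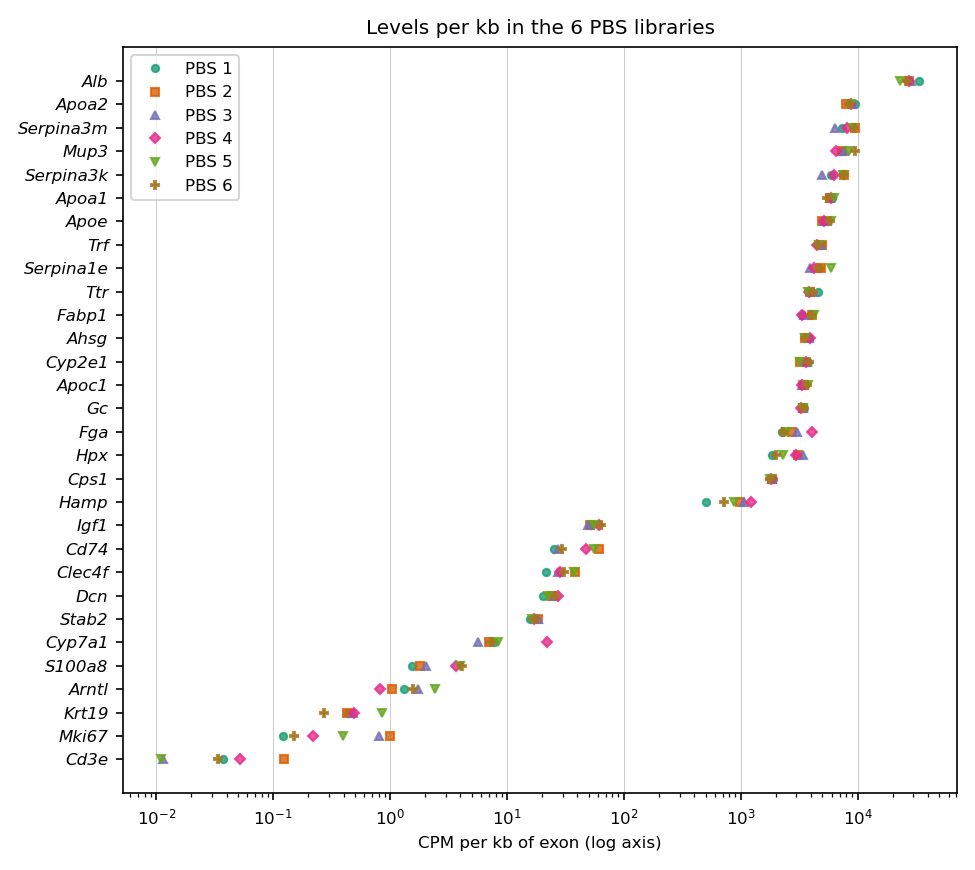
CPM per kb of exon (horizontal log axis) of 30 genes of hepatocytes and other liver cells in each of the 6 PBS libraries (symbols). Alb lies highest, with a mean of 27851 ± 3474, and the T cell gene Cd3e lowest, and the libraries of Gc and Cps1 lie closer together than those of Hamp and Fga.

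Clock genes were measured at a single hour, so no peak or trough can be read from their levels. Arntl and Npas2, the activators that peak around lights on in mouse liver, were at 11.2 ± 4.25 and 0.679 ± 0.607 CPM, and Clock at 86.9 ± 7.51 CPM. The repressors Per1, Per2, Per3, Cry1 and Cry2 were at 20.8 ± 4.29, 11.8 ± 2.02, 9.63 ± 3.07, 7.68 ± 2.49 and 22.2 ± 2.05 CPM. The nuclear receptors Nr1d1 and Nr1d2, which repress Arntl, were at 37.6 ± 6.41 and 110.3 ± 11.4 CPM. Dbp, an output factor driven directly by the clock, was at 33.7 ± 14.5 CPM and its relative Tef at 119 ± 28.95 CPM.

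The second question was which genes differed most between the 6 libraries for their level. For each of 12800 genes with a mean of at least 1 CPM, the SD of log2(CPM + 0.5) over the libraries was divided by the running median of that SD over the genes nearest in level, 100 on each side. A gene is called variable where this ratio was 2 or more. No test was made, and the ratio measures spread between these libraries, which holds animal and technical parts together. By this rule 1205 genes were variable, 9.41% of those measured. The median SD was 0.223 at 1 to 10 CPM, where counting alone gives 0.164 for the median gene, and 0.128 at 10 to 100, 0.111 at 100 to 1000 and 0.123 at 1000 CPM and over, where counting gives 0.0612, 0.0238 and 0.00702. The counting values leave out the added 0.5, which lowers an SD at low levels, so at 1 to 10 CPM they overstate the counting part. The share called was 5.79%, 11%, 16.6% and 15% in these bands. Dvl2 lay just inside the threshold at 2.001 and Epb4.1 just outside at 1.999.

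The share of variable genes differed between gene lists, which are described here by counts without a test. The 9.41% of all genes, given beside many lists, is not matched for level. By level the share ran from 5.79% at 1 to 10 CPM to 16.6% at 100 to 1000 CPM. Lists overlap, so their counts are not independent. Mup20 is both a urinary protein and a male-high gene, Mt2 both a metal-handling and a glucocorticoid-induced gene, and Fga both an acute phase and a clotting gene. Of 27 acute phase genes 25 were variable, as were 15 of 16 major urinary protein genes, 18 of 21 immediate early genes, 14 of 17 glucocorticoid-induced genes, 16 of 20 genes higher in male liver and 11 of 14 clock outputs. The median ratio was 3.85 for acute phase and 4.73 for urinary protein genes, against 1 for all genes measured. For clotting genes (4 of 26, 15.4%, the fibrinogen chains and Fgl1) and complement (5 of 26, 19.2%) the share was near that of all genes at 100 to 1000 CPM, 16.6%. Among 77 nuclear-encoded genes of oxidative phosphorylation and 83 ribosomal protein genes none was variable, with median ratios of 0.689 and 0.681. Genes with low ratios were found at all levels. The vitamin D carrier Gc had 6429, 6261, 6313, 6056, 6287 and 6260.0 CPM in PBS 1 to PBS 6, a ratio of 0.232. Plg (0.263) and Cps1 (0.290) followed among the genes over 1000 CPM. The mitochondrial chaperone Hspa9 had 608, 599.9, 604, 615, 600.0 and 597 CPM (ratio 0.137), and Msrb1, which repairs oxidised methionine, had 234, 236, 228, 232, 231 and 234 CPM (ratio 0.156). Srp19, a subunit of the signal recognition particle, had 12.3, 12.7 and 12.9 CPM as lowest, median and highest value (ratio 0.143). These genes were named for the lowest ratios in their level bands. The SD of Srp19, 0.0225, lay under the 0.0612 that counting gives the median gene of its band. That of Msrb1, 0.0164, lay under the 0.0238 of its band. Such values, picked as the lowest of many, cannot show that Srp19 and Msrb1 were steadier than other genes.

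**Figure D3:**
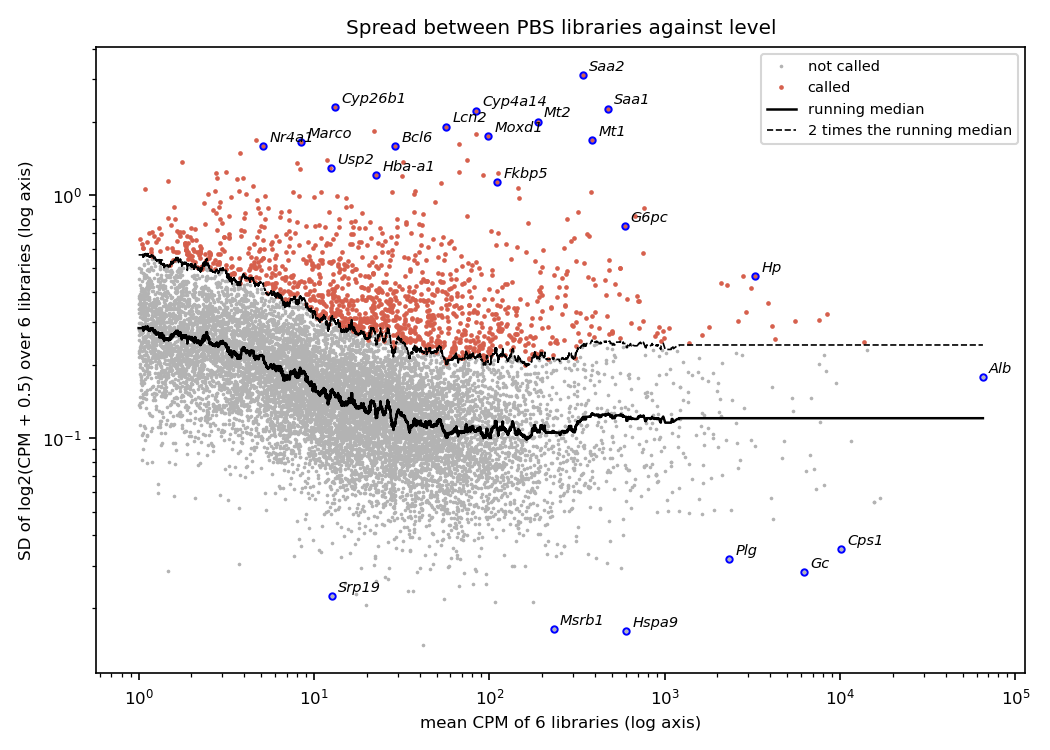
SD of log2(CPM + 0.5) over the 6 PBS libraries (vertical log axis) against mean CPM (horizontal log axis) for 12800 genes; the solid line is the running median, the dashed line 2 times that, and the 1205 variable genes are red. Saa2 and Saa1, with ratios of 25.5 and 18.1, lie far above the line, and Gc, Plg, Cps1, Hspa9 and Msrb1 lie far below it.

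The largest ratio of any gene named here was that of Saa2, a serum amyloid A gene. Serum amyloid A proteins bind high density lipoprotein and are made by hepatocytes in the acute phase response, driven by interleukin-6 and interleukin-1. Saa1 (chr7:46740497-46742980, minus strand, GRCm38) and Saa2 (chr7:46751790-46754313, plus strand) are neighbours that face away from each other. The 207 bases shown end 43 bases before the RefSeq start of each gene and are given to show how alike the paralogs are beside their starts (RefSeq, GRCm38.p6, Saa1 at chr7:46743024-46743230 on the minus strand, Saa2 at chr7:46751583-46751789 on the plus strand). Capitals mark the bases that differ between them or have no partner, and 195 of 206 aligned positions, 94.7%, were identical.
Saa1: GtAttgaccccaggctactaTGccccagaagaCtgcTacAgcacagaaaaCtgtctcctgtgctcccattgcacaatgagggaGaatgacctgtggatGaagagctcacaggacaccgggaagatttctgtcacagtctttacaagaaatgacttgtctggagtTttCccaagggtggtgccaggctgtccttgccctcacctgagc
Saa2: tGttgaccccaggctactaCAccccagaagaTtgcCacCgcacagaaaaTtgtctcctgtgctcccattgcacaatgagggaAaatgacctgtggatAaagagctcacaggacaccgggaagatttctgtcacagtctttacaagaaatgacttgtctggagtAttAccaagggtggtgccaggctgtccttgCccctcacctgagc

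Saa2 had 10.5, 136, 814, 1054, 10.8 and 13.4 CPM in PBS 1 to PBS 6, a 100.4-fold range and a ratio of 25.5. Saa1 had 46.2, 328, 1239, 1128, 44.3 and 59.9 CPM, a 27.97-fold range (ratio 18.1). Both were high in PBS 3 and PBS 4, between the extremes in PBS 2, and low in PBS 1, PBS 5 and PBS 6. Because the coding regions of these paralogs are also close, the split of reads between the rows is uncertain. Saa4, known as the constitutive member, had 180.4, 277 and 469 CPM as lowest, median and highest value, highest in PBS 3 and PBS 4 too. Saa3, made mainly outside hepatocytes, had 0.959, 1.98 and 12.7 CPM and was highest in PBS 3.

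Most other acute phase genes named here were also highest in PBS 3 or PBS 4, at smaller ranges. Lcn2, which binds bacterial siderophores, had 12.6, 37.2, 111, 164, 6.41 and 9.13 CPM (ratio 18.5), high in PBS 4 and PBS 3. Orm2, a form of orosomucoid, had 6.71, 21.7, 100.2, 34.03, 8.88 and 20.5 CPM and was highest in PBS 3, whereas Steap4, a metalloreductase, had 170.2, 319.6, 409, 1021, 187 and 159.6 CPM and was highest in PBS 4. Il1r1, the interleukin-1 receptor, had 70.3, 157, 229.7, 296, 46.8 and 69.9 CPM (ratio 10.3). Serpina3n, a serpin induced by cytokines, had 386, 526 and 1871 CPM as lowest, median and highest value, the highest in PBS 4. Among abundant proteins, haptoglobin (Hp), which binds free haemoglobin, had 2514, 3329, 5045, 4128, 2343 and 2349 CPM (ratio 3.85), haemopexin (Hpx), which binds haem, 2789, 3943 and 5088 CPM and Itih4 1943, 2584 and 4002 CPM as lowest, median and highest. Fgl1, a fibrinogen-related protein, had 171, 370.1 and 528 CPM and Hamp 206, 383 and 498 CPM, both lowest in PBS 1. The chemokine gene Cxcl1 had 20.4, 72.7 and 199 CPM, and Socs3, which limits interleukin-6 signalling, 8.904, 19.8 and 34.5 CPM, both highest in PBS 4 and lowest in PBS 6. The transcription factor gene Cebpd was not variable, at 12.5, 14.2 and 16.5 CPM (ratio 1.03).

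Averaged over the 27 acute phase genes, the deviation from the mean of each gene on the log2 scale was -0.70, 0.14, 0.76, 0.90, -0.53 and -0.57 in PBS 1 to PBS 6. The summed level ran from 28443 to 54484 CPM. The fibrinogen genes were variable through 1 library: without PBS 4 their ratios were 1.63, 1.41 and 1.31. Erythroid markers were ordered largely the other way. The 8 of them in the table summed to 207, 133, 138, 84.7, 284 and 240.5 CPM, lowest in PBS 4 and highest in PBS 5. Kupffer cell markers summed to 380.0, 677, 612, 518, 597 and 533 CPM, lowest in PBS 1. Neutrophil markers S100a8 and S100a9 had 1.06, 1.98 and 2.88 and 2.22, 2.68 and 5.605 CPM as lowest, median and highest values, S100a9 being highest in PBS 5, where acute phase genes were low. The part of blood and Kupffer cells in the acute phase pattern was not tested.

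Metallothioneins, small proteins that bind zinc and copper and are induced by metals, glucocorticoids and inflammation, were high in the same libraries, within a list of metal-handling genes of which 8 of 17 were variable (47.1%, beside 9.41% of all genes). Mt2 (chr8:94172664-94173568) and Mt1 (chr8:94179082-94180327) lie next to each other on the plus strand of chromosome 8. Their promoters are shown because zinc acts on both genes through a short core bound by the factor MTF1, searched here as TGCGCNC and TGCACNC on both strands; capitals mark each match (RefSeq, GRCm38.p6, Mt1 at chr8:94178839-94179081, Mt2 at chr8:94172368-94172617, plus strand).
Mt1: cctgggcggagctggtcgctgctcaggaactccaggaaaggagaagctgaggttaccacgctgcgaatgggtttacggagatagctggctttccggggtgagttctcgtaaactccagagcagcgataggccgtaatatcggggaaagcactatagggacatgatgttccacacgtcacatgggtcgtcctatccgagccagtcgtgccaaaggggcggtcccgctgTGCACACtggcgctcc
Mt2: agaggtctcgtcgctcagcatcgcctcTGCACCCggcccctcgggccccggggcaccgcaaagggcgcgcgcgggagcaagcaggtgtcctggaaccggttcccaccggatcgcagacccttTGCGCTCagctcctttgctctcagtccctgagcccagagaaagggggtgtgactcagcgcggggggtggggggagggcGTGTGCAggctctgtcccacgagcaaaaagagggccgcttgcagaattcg

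The Mt1 stretch, 243 bases that end 7 bases before its RefSeq start, held 1 match to TGCACNC. That of Mt2, 250 bases up to its RefSeq start, held 2, plus 1 to TGCGCNC. The Mt2 stretch ends short of the gene start given above, which is from GENCODE M21. Matches outside these stretches were not searched, so the numbers are not those of whole promoters. Of 27025 mouse promoters of 250 bases, 10.2% held TGCACNC and 12.6% TGCGCNC, so a match is common and describes letters only. Mt2 had 87.8, 152, 274, 577, 26.8 and 14.1 CPM (ratio 18.7) and Mt1 223, 314, 515, 1134, 77.7 and 49.3 CPM (ratio 13.3). Both were highest in PBS 4, then PBS 3, and lowest in PBS 6 and PBS 5. Slc39a14, a zinc and iron importer, had 195, 285 and 524 CPM as lowest, median and highest value, again highest in PBS 4. Genes induced by glucocorticoids shared part of the order. Fkbp5, a co-chaperone of the glucocorticoid receptor, had 89.1, 144, 186, 178, 35.2 and 33.1 CPM (ratio 10.2), high in PBS 3, PBS 4 and PBS 2. Zbtb16 had 71.6, 73.5, 85.5, 68.8, 28.3 and 35.8 CPM, also low in PBS 5 and PBS 6, and Fam107a had 2.01, 6.33 and 17.3 CPM, highest in PBS 3. Tat, which breaks down tyrosine, and Pck1 went another way, with 2733, 2949.8, 3101, 1739, 2732 and 2363 and 3174, 3557, 2728, 1861, 3287 and 2900.0 CPM, lowest in PBS 4. Without PBS 4 the ratios of Tat and Pck1 were 1.28 and 1.302, under the threshold.

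**Figure D4:**
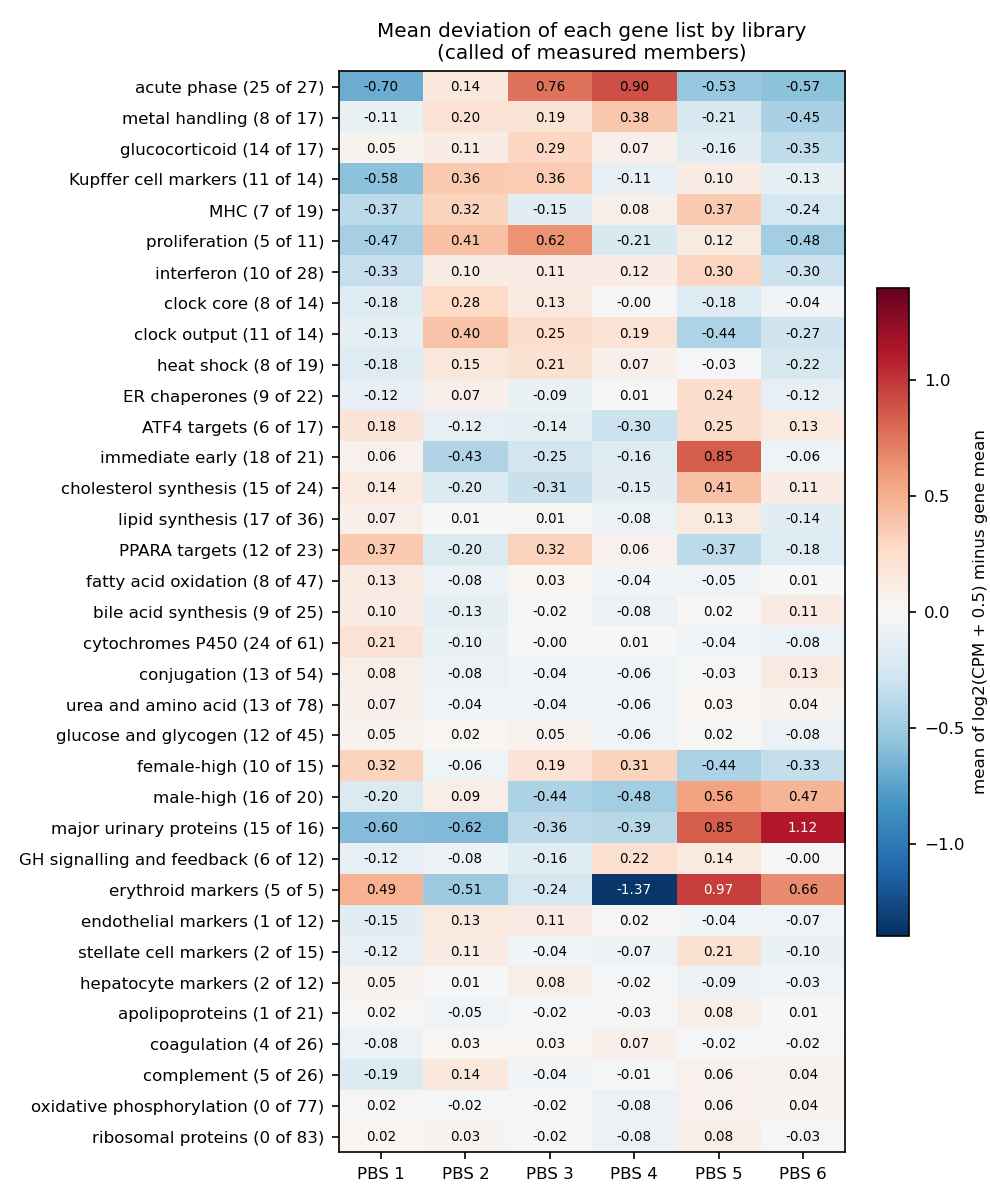
Mean deviation of log2(CPM + 0.5) from the gene mean over the measured members of each gene list (rows, with variable of measured members) in each PBS library (columns; red high, blue low). Acute phase genes are at 0.76 and 0.90 in PBS 3 and PBS 4, major urinary proteins at 0.85 and 1.12 in PBS 5 and PBS 6, and erythroid markers at -1.37 in PBS 4.

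Major urinary protein genes were high in 2 libraries. Their deviations were -0.60, -0.62, -0.36, -0.39, 0.85 and 1.12 in PBS 1 to PBS 6. Mup17 had 12.6, 17.2, 22.2, 34.8, 186 and 229 CPM (ratio 16.7), Mup15 10.2, 21.7, 28.7, 24.0, 174 and 147 CPM and Mup11 131, 162, 277, 258, 499.6 and 586 CPM, so PBS 5 and PBS 6 lay above all others for each. Mup7 had 353, 339, 419, 327, 713 and 743 CPM and Mup21 231, 332 and 411 CPM as lowest, median and highest. The most abundant member, Mup3, had 7732, 7813, 8144, 7046, 9092 and 10199 CPM and was the 1 measured member that was not variable (ratio 1.57), while Mup20, which encodes the male pheromone darcin, had 1619.8, 2298, 1892, 1293, 2591 and 2857 CPM (ratio 3.58), lowest in PBS 4. Since Mup3 and Mup20 hold most of the counts, the summed level had a small range, 9567 to 15847 CPM. The same PBS 5 and PBS 6 had the highest sums of erythroid markers, 284 and 240.5 CPM, whose part in this pattern was not tested. The urinary protein genes are near-identical copies, and no source used here says how reads that fit several copies were placed, which makes the values of single rows uncertain.

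Many other genes higher in male than in female liver were highest in PBS 5 or PBS 6. Moxd1, a copper monooxygenase relative, had 38.1, 51.7, 10.8, 25.8, 219.9 and 247 CPM (ratio 17.01). Hsd3b5, a steroid dehydrogenase of male liver, had 300.3, 236, 183, 148, 422 and 457 CPM, Cyp7b1, which hydroxylates oxysterols, 237, 404, 221, 215, 552 and 599.7 CPM and Selenbp2 431, 859, 323, 326, 1196 and 902 CPM, the last high in PBS 2 as well. Elovl3, a fatty acid elongase, had 111, 185 and 325 CPM, highest in PBS 5, Cyp2d9 855, 1046 and 1297 CPM and Ugt2b38 1.21, 3.21 and 7.802 CPM. Cyp4a12a had 88.5, 109.9 and 149 CPM and was highest in PBS 2. Slco1a1, a bile salt uptake carrier also higher in males, was steady at 797, 815 and 925 CPM (ratio 0.704). Of 15 measured genes known to be higher in females 10 were variable (66.7%, beside 9.41% of all genes), and several were lowest in PBS 5 and PBS 6. Cyp17a1 had 34.02, 29.3, 26.5, 14.8, 9.69 and 10.2 CPM, Abcd2, a peroxisomal transporter, 12.9, 3.98, 7.76, 11.9, 2.82 and 3.74 CPM and Slc16a5 0.320, 2.998 and 12.2 CPM as lowest, median and highest, the highest in PBS 4. Cyp2b10, a P450 induced by foreign compounds, had 0.493, 1.86 and 6.49 CPM, highest in PBS 3. Averaged, male-high genes, Mup20 among them, deviated by 0.56 and 0.47 in PBS 5 and PBS 6, where female-high genes deviated by -0.44 and -0.33.

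Genes that respond quickly to a pulse of growth hormone differed widely too, and 6 of 12 measured targets and feedback genes were variable (beside 9.41% of all genes). Cish, an inhibitor of the growth hormone receptor induced through STAT5, had 2.32, 20.7, 13.7, 26.4, 4.71 and 3.01 CPM (ratio 9.21). It was high in PBS 4, PBS 2 and PBS 3. Bcl6, a repressor that growth hormone lowers, had 59.2, 5.88, 10.6, 4.85, 45.4 and 48.4 CPM (ratio 13.95), and the 3 libraries high in it were those low in Cish. Socs2, another feedback inhibitor, had 10.1, 16.6, 4.53, 29.6, 21.2 and 15.1 CPM, lowest in PBS 3, and Onecut1, a hepatocyte transcription factor, 9.29, 33.1, 22.6, 46.5, 37.6 and 29.5 CPM, lowest in PBS 1. Prlr, another member of this list, was variable too, at a mean of 86.6 CPM (ratio 3.28). The growth hormone receptor, Stat5b, Igf1 and Igfals were even. Ghr had 628, 673 and 776 CPM, Stat5b 57.3, 67.9 and 72.9 CPM, Igf1 489.7, 536 and 628 CPM and Igfals, which carries IGF1 in blood, 63.9, 74.2 and 85.8 CPM as lowest, median and highest, with ratios of 1.08, 1.48, 1.14 and 1.45.

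**Figure D5:**
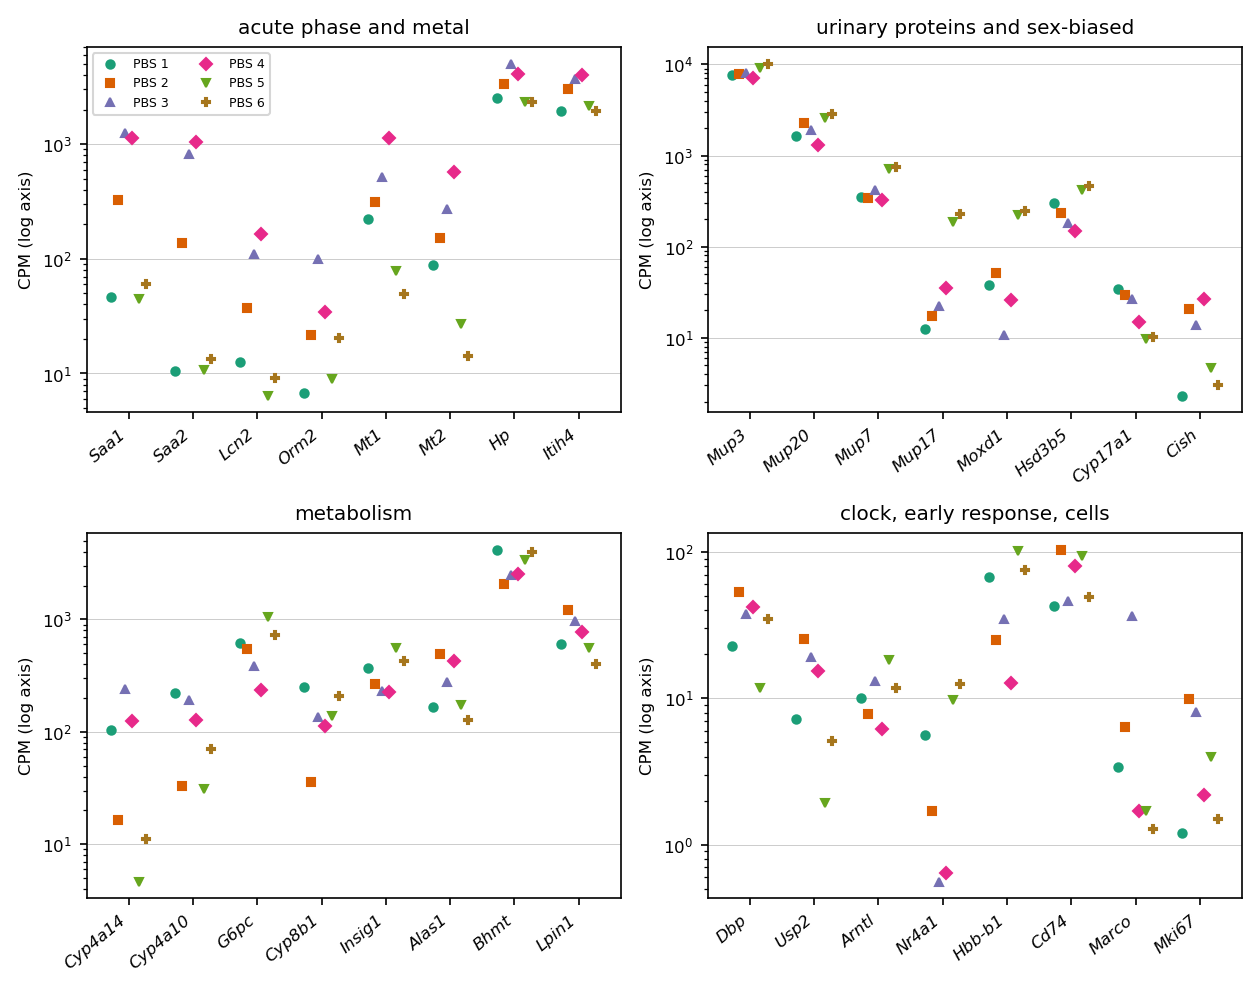
CPM (vertical log axis) of 32 genes in 4 groups, with 1 symbol per PBS library. Saa2 spans 10.5 to 1054 CPM with PBS 3 and PBS 4 high, Mup17 and Moxd1 are highest in PBS 5 and PBS 6, Cyp4a14 runs from 4.66 to 240.1 CPM, and Marco is high in PBS 3.

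Among the metabolic genes named here Cyp4a14, a target of the fatty acid sensing receptor PPARA, had the largest ratio. Cyp4a14, an omega-hydroxylase of fatty acids, had 103, 16.3, 240.1, 126, 4.66 and 11.2 CPM (ratio 20.7) and Cyp4a10 222, 32.97, 192, 127, 31.1 and 70.6 CPM (ratio 11.8). Both were high in PBS 1, PBS 3 and PBS 4 and low in PBS 2, PBS 5 and PBS 6. The Cyp4a genes are close paralogs, so their reads may be shared. Plin5, a lipid droplet protein, had 28.6, 49.9 and 88.5 CPM, highest in PBS 3. Fgf21, a fasting hormone, was low, with 2.57, 0, 0.234, 0.373, 1.97 and 1.37 CPM, and had no count in PBS 2. Pdk4, which spares glucose in fasting, was at 4.06, 4.68 and 7.92 CPM and not variable (ratio 1.87). Of the 23 measured PPARA targets 12 were variable (52.2%, beside 9.41% of all genes). Of 47 genes of fatty acid oxidation 8 were (17.0%), near the 16.6% of all genes at 100 to 1000 CPM.

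Of 45 genes of glucose and glycogen metabolism 12 were variable (26.7%, beside 9.41% of all genes and 16.6% at 100 to 1000 CPM). The median ratio was 1.08 and mean deviations were only -0.08 to 0.05, so the list as a whole was even. Single genes had wide ranges. G6pc, the last enzyme of glucose release, had 614, 543, 384, 235, 1042 and 725 CPM (ratio 6.096), highest in PBS 5. Igfbp1, which insulin represses, had 207, 71.8, 145, 91.3, 307 and 171 CPM, also highest in PBS 5. Ppp1r3g, a glycogen-targeting subunit of a phosphatase, had 2.56, 8.04 and 15.2 CPM as lowest, median and highest. In amino acid metabolism, Bhmt, which remethylates homocysteine, had 4177, 2066, 2466, 2512, 3382 and 3975 CPM (ratio 3.42), low in PBS 2, PBS 3 and PBS 4. Mat1a was highest in PBS 4 and low in PBS 5 and PBS 6, with 4368, 4238, 4394, 5280.3, 3093 and 3295 CPM. Sds, which turns serine into pyruvate, had 164, 353, 320.5, 277, 186 and 163 CPM, high in PBS 2, PBS 3 and PBS 4, and Asns, an ATF4 target, 3.88, 6.31 and 13.9 CPM, highest in PBS 6. Car3, a carbonic anhydrase also abundant in fat cells, had 2973, 1311, 2121, 1922, 2709 and 2478 CPM (ratio 3.52), lowest in PBS 2. It supplied most of the summed level of 8 adipocyte markers, 1323 to 2981 CPM, and the part of fat tissue was not tested.

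Of 24 genes of cholesterol synthesis and uptake 15 were variable (62.5%, beside 9.41% of all genes), with a mean deviation of 0.41 in PBS 5 and -0.31 in PBS 3. Insig1, which restrains SREBP activation, had 369, 267, 231, 227, 562 and 426 CPM and Mvd, an enzyme of the mevalonate pathway, 16.3, 8.75, 6.77, 8.43, 28.02 and 15.02 CPM, both highest in PBS 5. Sqle had 87.8, 109 and 153 CPM and, without PBS 5, a ratio of 1.92, under the threshold. Fat synthesis genes were mixed. Fasn had 443, 512, 345, 489, 670.4 and 324 CPM, highest in PBS 5, Thrsp 82.5, 205, 149.9, 204, 143 and 77.9 CPM, high in PBS 2 and PBS 4, and Lpin1, a phosphatidate phosphatase and glucocorticoid target, 605, 1218, 973, 779.5, 557 and 405 CPM, highest in PBS 2. G0s2, an inhibitor of lipolysis, had 9.39, 14.01 and 37.1 CPM, highest in PBS 1.

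Of 25 genes of bile acid synthesis and transport 9 were variable (36.0%, beside 9.41% of all genes and 16.6% at 100 to 1000 CPM). Their median ratio was 1.18. Cyp8b1, which directs synthesis towards cholic acid, had 251, 36.2, 136, 112, 139 and 209 CPM (ratio 9.12), lowest in PBS 2. Cyp7a1, the rate-limiting enzyme, had 32.1, 29.6, 23.6, 92.7, 35.2 and 30.4 CPM, high in PBS 4 alone, and without that library its ratio was 1.81. Nr0b2, which encodes the repressor SHP of Cyp7a1, had 34.4, 20.1, 35.8, 11.8, 35.8 and 41.2 CPM and was lowest in PBS 4. Cyp39a1 had 4.66, 17.5 and 24.2 CPM and Cyp27a1, of the alternative route, an even 462, 508 and 569 CPM (ratio 1.05). Enzymes that break down retinoic acid had wide ranges. Cyp26a1 had 26.95, 7.09, 2.06, 7.36, 83.5 and 4.38 CPM (ratio 12.9), high in PBS 5, and Cyp26b1, expressed by stellate cells, 26.9, 19.8, 0.234, 12.5, 19.1 and 0.685 CPM (ratio 15.4), low in PBS 3 and PBS 6. Lrat, the stellate cell enzyme that stores retinol as esters, had 28.8, 23.2, 10.4, 24.9, 36.6 and 15.4 CPM and was low in the same 2 libraries, while Dcn, another stellate cell gene, was even at 119.9, 144 and 159 CPM. Of 61 measured P450 genes 24 were variable (39.3%, beside 9.41% of all genes and 16.6% at 100 to 1000 CPM). Among those of foreign compounds, Cyp3a11 had 57.4, 73.7 and 122 CPM (ratio 3.89) and Cyp1a2 334, 395 and 459 CPM (ratio 1.33).

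Although all livers carry the same time label, clock genes and outputs differed. Usp2 had 7.27, 25.6, 19.3, 15.4, 1.93 and 5.11 CPM (ratio 8.47) and Dbp 22.9, 53.1, 37.4, 42.1, 11.8 and 34.7 CPM (ratio 6.44). Gm129, now called Ciart, a repressor counted among the core clock genes, had 2.42, 19.3, 11.7, 9.82, 1.30 and 3.29 CPM (ratio 7.303). All 3 were highest in PBS 2 and lowest in PBS 5. Arntl was highest in PBS 5, with 9.99, 7.87, 13.04, 6.13, 18.2 and 11.8 CPM. Alas1, the first enzyme of haem synthesis and a clock output in liver, had 166, 491, 276, 431, 173 and 127 CPM, high in PBS 2 and PBS 4. Tef had 78.6, 120.5 and 150.3 CPM. Of 14 core clock genes 8 were variable (57.1%, beside 9.41% of all genes), some through 1 library. Per1 and the output gene Ccrn4l, which encodes Nocturnin, were highest in PBS 2, with 28.7 and 34.2 CPM, and had ratios of 1.12 and 1.202 without it. Nr1d1 had a ratio of 1.88 without PBS 4, Cry1 of 1.98 without PBS 4, Nfil3 of 1.34 without PBS 6 and Bhlhe41 of 1.79 without PBS 2. Clock, Per2, Cry2 and Nr1d2 were not variable.

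Immediate early genes, which cells switch on within minutes of a stimulus or of tissue handling, deviated by 0.06, -0.43, -0.25, -0.16, 0.85 and -0.06 in PBS 1 to PBS 6. Nr4a1 had 5.65, 1.71, 0.561, 0.640, 9.69 and 12.5 CPM, Fos 3.53, 0.787, 1.78, 1.01, 10.3 and 4.57 CPM and Egr1 15.8, 2.32, 6.49, 9.23, 21.2 and 10.4 CPM. PBS 5 was high for all 3, and PBS 6 highest for Nr4a1. Fosb and Atf3 were high in PBS 5 alone, with 6.32 and 10.9 CPM against medians of 0.509 and 1.01 CPM in the others, and without PBS 5 the ratio of Atf3 was 1.57 and Fosb fell under 1 CPM. Without PBS 5 the number of variable immediate early genes was 12 rather than 18. Junb had 35.6, 68.6 and 91.2 CPM as lowest, median and highest. Ier2 was even at 15.4, 16.6 and 17.6 CPM (ratio 0.647).

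Genes of blood and immune cells were mixed. Of 3 measured neutrophil markers none was variable, and of 3 measured lymphocyte markers 1 was. All 5 measured erythroid genes were variable. Hbb-b1 had 67.3, 25.2, 34.9, 12.6, 102 and 75.7 CPM and Hba-a1 27.01, 11.6, 14.3, 4.05, 45.1 and 33.2 CPM, low in PBS 4 and high in PBS 5. Alas2, the erythroid enzyme of haem synthesis, had 63.3, 89.8 and 109 CPM. Of 14 Kupffer cell markers 11 were variable (78.6%, beside 9.41% of all genes). Cd5l, a secreted macrophage protein, had 40.8, 93.5, 90.9, 63.7, 76.5 and 66.03 CPM, Clec4f 53.5, 95.03, 67.8, 69.9, 93.1 and 76.3 CPM and the haemoglobin scavenger receptor Cd163 12.9, 35.98, 38.8, 30.9, 22.5 and 25.9 CPM, each lowest in PBS 1. Without PBS 1 only 5 of these markers were variable. Vsig4, a complement receptor, had a ratio of 1.21 without it. Marco, a scavenger receptor, had 3.38, 6.39, 36.4, 1.71, 1.704 and 1.28 CPM, high in PBS 3 alone (ratio 8.72, or 3.36 without PBS 3). Of 19 antigen presentation genes 7 were variable (36.8%, beside 9.41% of all genes). The class II genes Cd74 and H2-Aa had 42.5, 104, 46.3, 79.5, 94.2 and 49.5 and 16.1, 46.03, 20.3, 34.4, 41.3 and 18.5 CPM, high in PBS 2, PBS 5 and PBS 4, and H2-Ab1 and H2-Eb1 had 13.6, 23.6 and 38.2 and 9.14, 17.02 and 32.1 CPM. Ighm, the heavy chain of immunoglobulin M, was highest in PBS 2, at 16.6 CPM, and had a ratio of 1.68 without it. Of 11 measured proliferation genes 5 were variable (45.5%). Mki67 and Top2a had 1.21, 9.96, 8.13, 2.19, 3.99 and 1.51 and 0.555, 5.88, 4.86, 1.81, 2.47 and 0.868 CPM, high in PBS 2 and PBS 3.

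No library carried the pattern alone, but some carried more of it. For 358 of the 1205 variable genes (29.7%) PBS 4 lay farthest from the median of the others, against 23% of all genes measured, and it had the lowest total count. The other libraries were farthest for 103 to 260 variable genes. Leaving out any 1 library kept 609 genes (50.5%) at a ratio of 2 or more. Genes with 1 library at the end of a wide range included Serpina3c, a serpin, with 0.757, 0.926, 23.1, 1.39, 1.17 and 0.548 CPM, high in PBS 3 and under 1 CPM on average without it, Serpina4-ps1 with 8.58, 129, 59.2, 94.9, 105 and 54.2 CPM, lowest in PBS 1, and Slc37a1, a sugar phosphate carrier, with 1.82, 9.08, 9.06, 23.95, 3.81 and 2.42 CPM, highest in PBS 4. The last pair stayed variable without these libraries, with ratios of 4.88 and 4.63. Lars2, the mitochondrial leucyl-tRNA synthetase, had 17.5, 81.04, 44.5, 25.4, 11.1 and 41.96 CPM (ratio 8.55), highest in PBS 2 and lowest in PBS 5. Serpina3k had a ratio of 2.06 with all libraries and 1.36 without PBS 3, and Serpina3m, whose reads it may share, was under the threshold at 1.90.

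Non-coding RNA was variable at shares near or below that of all genes, a figure not matched for level. Of 328 long non-coding genes 35 (10.7%) and of 358 small ones 20 (5.59%) were variable. The share was 9.41% for all genes and 5.79% for genes at 1 to 10 CPM, so the long share lay above the latter. Malat1 was steady at 3839, 3991 and 4253 CPM (ratio 0.471), 7SK at 6109.7, 6289 and 6861 CPM (ratio 0.607). Neat1 had 335, 313, 566, 544, 327 and 264 CPM (ratio 3.62), high in PBS 3 and PBS 4, the libraries in which acute phase genes were high. The lincRNA row AC126942.1 was variable as well, but its counts lay within 10% of those of Lpin2 on the same strand.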

How the data were processed

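Total RNA of mouse liver was sequenced from stranded, ribosomal RNA depleted libraries, per the labels' protocols. The authors deposited raw counts of reads per gene, as whole numbers without normalisation, for 12 libraries; the 6 PBS columns were mapped by title and no column was left unmapped. The submitters' processing notes name STAR 2.4.0i and the mm10 build. How reads were counted (tool, annotation, strand, multiple hits) is not given in the sources used here. Total counts were 18746597 to 22302533 per library.

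CPM used column sums. Gene types, positions and exon lengths came from GENCODE M21 (95.3% of rows matched by identifier). Shares are mean ± SD over 6 libraries. The ratio that defines variable genes uses log2(CPM + 0.5) and a mean of at least 1 CPM. Its running median covers 100 genes on each side and its threshold is 2. It was run on simulated data in which all unchanged genes had the same true spread. Where true spreads vary from gene to gene, such data cannot show how well the threshold sorts them. No p-value was computed and no treatment was compared. The genes named were taken by rule: the highest by level and by level per kb, the highest and lowest ratios in each level band, and the leading members of each list and class. Genes outside it, chosen after their values were seen, include the overlapping pairs, genes tied to 1 library and the pathway members beside the leading ones. The members and lists were chosen with earlier results of these data known. Scaling alternatives used TMM (edgeR 4.0.16) and DESeq2 1.42.0 size factors in R 4.3.3; other work used Python 3.11.15, pandas 2.3.3 and numpy 2.4.6. A few genes are not reported here. Alternatives are in the closing section.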

Additional observations from a re-analysis of the deposited data

Results flagged for a closer look

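Among 231 values examined, 20 (8.66%) had 1 of the 6 libraries standing apart, with a gap to its nearest neighbour, as a share of the whole range, above the critical value of Dixon's test. Chance alone flags about 1 in 20 such groups, but the values examined include genes named for a high ratio or for 1 outlying library, so the share cannot be read against that rate.

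In PBS 4 the values that stood apart were Fgg at 7956 CPM, Steap4 at 1021 CPM, Serpina3n at 1871 CPM, Cyp7a1 at 92.7 CPM, Slc16a5 at 12.2 CPM and Slc37a1 at 24.0 CPM. The medians of the other libraries were 4821, 187, 456, 30.4, 2.48 and 3.81 CPM. In PBS 3 they were Orm2 at 100.2 CPM, Saa3 at 12.7 CPM, Marco at 36.4 CPM and Serpina3c at 23.1 CPM, against medians of 20.5, 1.71, 1.71 and 0.926 CPM. In PBS 5 they were Cyp26a1 at 83.5 CPM, Atf3 at 10.9 CPM, Fosb at 6.32 CPM, S100a9 at 5.605 CPM and Npas2 at 1.84 CPM, against 7.09, 1.01, 0.509, 2.37 and 0.417 CPM. In PBS 2 they were Ccrn4l at 34.2 CPM, Ighm at 16.6 CPM and Cd3e at 0.509 CPM, against 18.6, 5.75 and 0.137 CPM. In PBS 1 they were Apoh at 2319 CPM, against 2075 CPM, and the mean deviation of cytochrome P450 genes, 0.21 on the log2 scale, against -0.04.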

How the results depend on the processing

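The make-up of the RNA depended on the denominator. Per kilobase of exon, secreted genes held 30.0%, metabolic genes 14.5%, housekeeping genes 2.32% and non-coding genes 30.9%. Among protein-coding genes other than the 20 most abundant, the first 3 held 15.9, 25.7 and 3.85%; non-coding genes have no value there. With overlapping rows counted once, an alternative added after seeing the data, housekeeping genes held 2.82% and non-coding genes 2.89%. Leaving out each library in turn gave 32.5 to 32.9% secreted, 19.7 to 20% metabolic, 2.67 to 2.72% housekeeping and 3.03 to 3.10% non-coding.

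The 1205 variable genes became 440 at a ratio of 3, 1222 with TMM scaling (1164 shared), 1236 with DESeq2 size factors, 1560 with the median absolute deviation (967 shared) and 1229 to 1281 without 1 library. Of 264 list values 16 changed sign under TMM, none above 0.0385 in size. Under the median absolute deviation 11 of 16 urinary protein, 13 of 21 immediate early, 11 of 17 glucocorticoid-induced and 8 of 14 clock output genes were variable. Acute phase and male-high genes rose to 26 of 27 and 17 of 20. Without PBS 4, 21 of 27 acute phase genes were variable, and without PBS 6, 12 of 15 urinary protein genes. Of 116 named variable genes 106 stayed variable under all other settings with a ratio of 2 and all libraries; Serpina3k was lost under TMM (1.85), and Pck1, Cyp7a1, Nr0b2, Fosb, Atf3, Per1, Cry1, Ccrn4l and Vsig4 under the median absolute deviation. With a minimum of 0.5 CPM rather than 1 CPM, 13094 rather than 12023 genes were detected in each library. No paired analysis was possible because 1 group was described and no test was made. Genes at 1 to 10 CPM are the most limited by depth. Counting error alone gives an SD of 0.164 without the added 0.5, which would lower it, against 0.223 observed with it. The causes of these changes were not tested.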
